A study of Mus musculus with 7 samples.

Results

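MiR-183-5p, miR-96-5p and miR-182-5p (mmu-miR-183-5p, mmu-miR-96-5p and mmu-miR-182-5p in the deposited table) are the main arms of 3 microRNA (miRNA) hairpins that lie together on mouse chromosome 6. They are 3 of the 1978 mature miRNA names listed, and they were taken by name, 1 line each. MiRNAs were counted by small RNA sequencing in splenic CD8+ T cells of gBT-I mice, whose T cells all carry a transgenic receptor for a herpes simplex virus peptide. The 4 groups were neonatal VM (2 libraries), neonatal TN (1 library), adult VM (2 libraries) and adult TN (2 libraries). VM (virtual memory) cells were sorted as CD44hi CD122hi and TN (true naive) cells as CD44lo CD122lo. All groups carry the same transgenic receptor, and the labels used here do not give the age in days, the sex or how many animals went into a library. Since no label says that the replicates are separate animals, every p-value here describes library-to-library spread only, and that spread may be technical.

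The cluster is best known from sensory organs, where its miRNAs are needed by hair cells and photoreceptors, and it is also expressed in epithelia. In mouse helper T cells, miR-182 is known to be induced by interleukin-2 through STAT5 and to target Foxo1, a transcription factor that keeps T cells quiescent. The cluster has also been described in mouse Th17 cells. CD122, one of the markers used for the sort, is a receptor chain shared by interleukin-2 and interleukin-15.

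The mature sequences are shown because the members fall into seed groups that do not follow their abundance. Sequences are those of RefSeq on GRCm38.p6, the build of the mm10 coordinates named by the submitters, and all 3 members matched by name. They are written 5′ to 3′, and the capitals mark the seed, bases 2 to 8 from the 5′ end, which pairs with target RNAs.
miR-182-5p: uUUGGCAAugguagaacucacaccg
miR-96-5p: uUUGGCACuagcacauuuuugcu
miR-183-5p: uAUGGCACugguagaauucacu
MiR-182-5p and miR-96-5p share bases 2 to 7 and differ in the seed at 1 base, A8C. MiR-183-5p and miR-96-5p also differ in the seed at 1 base, A2U, and miR-182-5p and miR-183-5p at 2 bases, U2A and A8C (positions count from 1 at the 5′ end, with the base of the first-named miRNA first). Over their whole length the likeness runs the other way. MiR-182-5p and miR-183-5p have the same base at 18 of 22 positions without gaps, against 12 of 23 for miR-182-5p and miR-96-5p and 13 of 22 for miR-183-5p and miR-96-5p. MiR-1271-5p was the only other listed miRNA with bases 2 to 7 of a member, among those with a sequence in the RefSeq table, and it had 0 counts in all libraries.

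The hairpins are all on the minus strand and span 3820 bases of chromosome 6 (30165918 to 30169737). Mir183 (30169668 to 30169737) and Mir96 (30169446 to 30169551) lie 116 bases apart, and Mir182 (30165918 to 30165992) lies 3453 bases beyond Mir96. No other GENCODE M21 gene overlaps the span, so none of the 3 has an annotated host gene, exon or intron. The nearest gene on one side is Nrf1, a transcription factor gene on the plus strand, 12459 bases away. On the other side it is the long non-coding RNA gene Rncr4, also on the plus strand, 3155 bases away. The hairpins are shown because the arms differed widely in their counts, and the capitals mark the 5p arm and then the 3p arm of each.
Mir183: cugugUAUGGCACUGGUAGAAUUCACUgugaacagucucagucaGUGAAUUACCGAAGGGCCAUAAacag
Mir96: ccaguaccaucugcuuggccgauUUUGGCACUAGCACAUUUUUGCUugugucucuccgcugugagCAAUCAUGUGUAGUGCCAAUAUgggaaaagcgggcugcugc
Mir182: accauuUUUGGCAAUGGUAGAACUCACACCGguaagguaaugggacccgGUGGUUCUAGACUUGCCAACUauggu
Summed over the 7 libraries, the 5p arm of miR-182 had 63065 counts and the 3p arm 3. For miR-183 the sums were 3087 and 23 counts, and for miR-96 they were 142 and 1. The 3p arm thus made up 0.00476% of the miR-182 counts (95% exact binomial interval 0.000981 to 0.0139%), 0.74% for miR-183 (0.469 to 1.11%) and 0.699% for miR-96 (0.0177 to 3.83%). Such intervals pool the 7 libraries and leave out the spread between them. They may also be too narrow for counting error, because PCR copies of a molecule are counted as separate reads. The counts of miR-183-3p were uneven, with 7 and 3 in neonatal VM, beside 362 and 727 of the 5p arm. They were 1 beside 826 in neonatal TN, 9 and 1 beside 413 and 509 in adult VM, and 2 and 0 beside 114 and 136 in adult TN. No 3p arm reached the level needed for testing, and the most counts one had in a library was 9, for miR-183-3p in adult VM replicate 1. The values below are therefore those of the 5p arms.

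Library totals ranged from 1577031 to 3278451 counts. Levels are given as CPM (counts of a miRNA per 1000000 counts) after TMM, a scaling that centres the libraries on the bulk of their miRNAs. Of the 1978 names, 288 with at least 10 CPM of library total in at least 2 libraries were tested, and all 3 members were among them. MiR-182-5p and miR-183-5p passed this minimum in all 7 libraries. MiR-96-5p passed it only through both adult VM libraries and neonatal VM replicate 2, where it was highest, so its passing already favours a difference and its call is not used as support. The lymphocyte miRNAs of the marker list, among them miR-150-5p and miR-142a-5p, summed to between 162200 and 586600 CPM in every library. The sums differed by group, at 162200 to 170800 CPM in neonatal VM and 282800 CPM in neonatal TN. They were 338400 to 376000 CPM in adult VM and 495000 to 586600 CPM in adult TN. MiR-150-5p alone had 365900 and 435400 CPM in adult TN, and what such a share does to the levels of the members was not tested. Markers of other cells were also present, and no list was empty. The epithelial and sensory list summed to at most 1645 CPM in a library, the erythroid list to 594 CPM, the myeloid and progenitor list to 208 CPM and the stromal and muscle list to 98.4 CPM. The highest single markers were the epithelial miR-203-3p (up to 679 CPM), the erythroid miR-486b-5p (up to 295.4 CPM), the progenitor miR-10a-5p (up to 166 CPM) and the stromal miR-143-3p (up to 67.2 CPM). Lower ones were the erythroid miR-451a (up to 9.65 CPM) and the myeloid miR-223-3p (up to 15.6 CPM), and the muscle miR-1a-3p and the neural miR-124-3p had no count.

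The 3 members stood at very different levels. MiR-182-5p was among the 55 most abundant miRNAs of every library, at rank 26 to 55, while miR-183-5p held rank 98 to 154 and miR-96-5p rank 234 to 326. These ranks compare reads per miRNA of 22 to 25 bases, and how well each sequence is ligated was not tested.

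MiR-182-5p had 3462 and 3602 CPM in neonatal VM, 4009 CPM in neonatal TN and 4182 and 4972 CPM in adult VM, against 1004 and 1198 CPM in adult TN. The adult TN libraries were the low ones, and the lowest of the other 5 lay 2.89-fold above the higher of them. Among those other 5 libraries the highest was 1.44-fold above the lowest. The raw counts behind these values were 6997 and 13779 in neonatal VM, 12876 in neonatal TN, 10383 and 14373 in adult VM, and 1860 and 2797 in adult TN.

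MiR-183-5p followed the same division, with 179 and 190.1 CPM in neonatal VM, 257 CPM in neonatal TN and 166 and 176 CPM in adult VM, against 61.6 and 58.2 CPM in adult TN. Again both adult TN libraries lay below all others, here by at least 2.70-fold. The neonatal TN library was the highest of the 7 for miR-183-5p. For miR-182-5p the 2 adult VM libraries were the highest.

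MiR-96-5p was scarce, with 5.44 and 9.41 CPM in neonatal VM, 5.29 CPM in neonatal TN and 11.7 and 11.4 CPM in adult VM, against 2.70 and 4.71 CPM in adult TN. These rest on 11 and 36 counts in neonatal VM, 17 in neonatal TN, 29 and 33 in adult VM, and 5 and 11 in adult TN. The adult TN libraries were again the lowest, but only 1.12-fold separated the higher of them from the neonatal TN library. The exact binomial intervals of those 2 libraries overlapped, at 3.32 to 9.13 CPM of library total in neonatal TN and 1.84 to 6.58 in adult TN replicate 2.

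Both adult TN libraries lay below the 5 others at 59 of the 288 tested miRNAs (20.5%), so the order alone was common. They lay more than 2-fold below all 5 others at 17 of 288 (5.9%), a limit chosen after the values were seen, and miR-182-5p and miR-183-5p were among these.

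**Figure D1:**
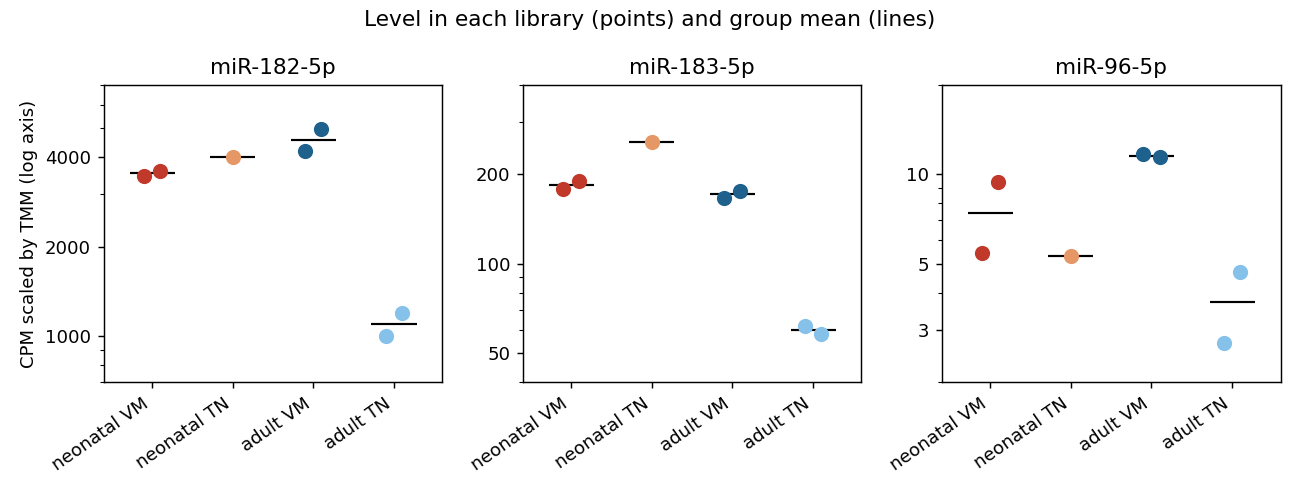
CPM scaled by TMM on a log axis for each of the 3 members, with 1 point per library and a line at the mean of each group (n = 2, 1, 2 and 2 from left to right). The 2 adult TN points lie below all others in each panel, by 2.89-fold for miR-182-5p, 2.70-fold for miR-183-5p and 1.12-fold for miR-96-5p.

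As group means, miR-182-5p ran from 4577 ± 558 CPM in adult VM (SD, n = 2) through 4009 CPM in neonatal TN (n = 1) and 3532 ± 99.3 CPM in neonatal VM (n = 2) down to 1101 ± 137 CPM in adult TN (n = 2). For miR-183-5p the order was neonatal TN at 257 CPM (n = 1), neonatal VM at 185 ± 7.75 CPM, adult VM at 171 ± 6.87 CPM and adult TN at 59.9 ± 2.34 CPM (n = 2 each). For miR-96-5p it was adult VM at 11.6 ± 0.188 CPM, neonatal VM at 7.43 ± 2.81 CPM (n = 2 each), neonatal TN at 5.29 CPM (n = 1) and adult TN at 3.71 ± 1.42 CPM (n = 2). Adult TN was last in all 3 orders. Above it, neonatal VM passed the test against neither neonatal TN nor adult VM for any member, and neonatal TN was not tested against adult VM.

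The first question was how the cluster differs between true naive cells of neonates and adults. In neonatal TN cells miR-182-5p was 3.64-fold and miR-183-5p 4.29-fold the adult TN level, while miR-96-5p did not pass. The log2 fold change was 1.86 for miR-182-5p (SE 0.22, edgeR quasi-likelihood, adjusted p after Benjamini and Hochberg = 5.76e-05). It was 2.10 for miR-183-5p (SE 0.25, edgeR adjusted p = 5.10e-05). For miR-96-5p it was 0.48 with a 95% interval of -0.92 to 1.87 (edgeR adjusted p = 0.572). This comparison called 47.9% of the 288 tested miRNAs, and 26.4% of the 288 were called as higher, the direction of the 2 called members. By size, miR-183-5p exceeded 84.7% of the tested miRNAs in this comparison and miR-182-5p 80.9%. The neonatal side is 1 library, which the fit assumes to vary like the others.

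The second question was how VM cells differ from TN cells in the adult. In adult VM cells miR-182-5p was 4.16-fold, miR-183-5p 2.86-fold and miR-96-5p 3.02-fold the adult TN level. The log2 fold change was 2.06 for miR-182-5p (SE 0.20, edgeR adjusted p = 9.09e-06) and 1.52 for miR-183-5p (SE 0.22, edgeR adjusted p = 3.06e-04). For miR-96-5p it was 1.60 (SE 0.51, edgeR adjusted p = 0.0252), and this call was lost without adult TN replicate 1 (edgeR adjusted p = 0.168), adult TN replicate 2 (0.101) or neonatal VM replicate 2 (0.0551). This comparison called 39.2% of the 288 tested miRNAs, and 23.6% of the 288 were called as higher in VM. MiR-182-5p had the 14th largest increase among them, and miR-183-5p the 30th. The 2 comparisons described so far share the adult TN libraries, so neither is independent support for the other.

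In neonatal cells the subsets were not told apart by the cluster. The log2 fold change of neonatal VM over neonatal TN was -0.18 for miR-182-5p (95% interval -0.69 to 0.32, edgeR adjusted p = 0.704). For miR-183-5p it was -0.48 (-1.02 to 0.06, edgeR adjusted p = 0.264) and for miR-96-5p 0.54 (-0.71 to 1.79, edgeR adjusted p = 0.621). The test called 9.72% of the tested miRNAs here. The intervals of miR-182-5p and miR-183-5p reach no higher than 0.32 and 0.06, against increases of 2.06 and 1.52 in adult cells.

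Whether the subset difference depends on age was tested directly as the interaction, the VM over TN change in neonatal cells minus that in adult cells. It was -2.24 on the log2 scale for miR-182-5p (SE 0.30, edgeR adjusted p = 6.53e-04) and -1.99 for miR-183-5p (SE 0.32, edgeR adjusted p = 0.00183). For miR-96-5p it was -1.06 with a 95% interval of -2.74 to 0.63 (edgeR adjusted p = 0.463). Of the 288 tested miRNAs, 7.99% were called for the interaction, and 6.25% of the 288 were called in this downward direction. MiR-182-5p had the third smallest p among them. This contrast uses the 2 adult TN libraries and the lone neonatal TN library as well. Without adult TN replicate 2, miR-183-5p no longer passed (log2 value -1.82, edgeR adjusted p = 0.0651), while miR-182-5p passed without any one library that could be left out (edgeR adjusted p up to 0.0432).

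**Figure D2:**
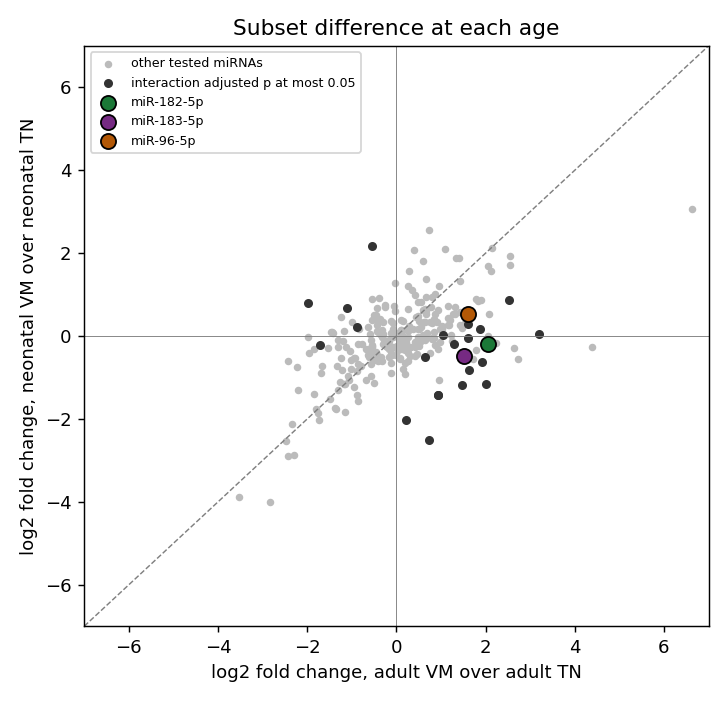
Log2 fold change of adult VM over adult TN (horizontal axis) and of neonatal VM over neonatal TN (vertical axis) for the 288 tested miRNAs, with the diagonal of equal change dashed. MiR-182-5p lies at 2.06 and -0.18 and miR-183-5p at 1.52 and -0.48, below the diagonal among the dark points that passed the interaction test, while miR-96-5p lies at 1.60 and 0.54 and did not pass it.

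Between neonatal and adult VM cells no member passed. The log2 fold change was -0.37 for miR-182-5p (95% interval -0.79 to 0.04, edgeR adjusted p = 0.116), 0.11 for miR-183-5p (-0.34 to 0.56, edgeR adjusted p = 0.661) and -0.58 for miR-96-5p (-1.53 to 0.37, edgeR adjusted p = 0.275). This stood beside 53.8% of tested miRNAs called in the same comparison. The calls depend on the settings and on 1 library. MiR-182-5p passed as lower in neonatal VM without adult VM replicate 1 (log2 fold change -0.50, edgeR adjusted p = 0.033) and without the filter on low counts (-0.49, edgeR adjusted p = 0.041). By library totals miR-182-5p was at 0.14 and miR-183-5p at 0.62, where miR-183-5p passed (edgeR adjusted p = 0.0231).

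Averaged over both subsets, no member passed with age, and averaged over both ages none passed with subset. For neonatal against adult cells the log2 fold changes were 0.59 for miR-182-5p, 0.95 for miR-183-5p and -0.23 for miR-96-5p (edgeR adjusted p = 0.263, 0.0616 and 0.609), where 53.8% of tested miRNAs were called. For VM against TN cells they were 1.09, 0.65 and 1.13 (edgeR adjusted p = 0.0938, 0.244 and 0.059), where 24.7% were called. For miR-182-5p and miR-183-5p the averages join a large change in one stratum with a small one in the other. For miR-96-5p the average with age joins 0.48 in TN cells and -0.58 in VM cells, neither of which passed. MiR-183-5p lay near the threshold with age and passed it under library totals, RLE and upper quartile factors, without the filter and in DESeq2 (log2 fold changes 0.80 to 1.39). It also passed without adult VM replicate 2 (1.12, edgeR adjusted p = 0.047) or neonatal VM replicate 1 (1.18, edgeR adjusted p = 0.0366). Without the neonatal TN library, the age value of miR-182-5p was -0.35 (edgeR adjusted p = 0.143), since only VM cells then carry the comparison. Without it miR-182-5p and miR-183-5p passed as higher in VM than TN cells (2.05 and 1.51), since only adult cells then carry that comparison. MiR-96-5p was at 1.59 there, but it met the minimum for testing only through VM libraries, so its call is not used as support.

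**Figure D3:**
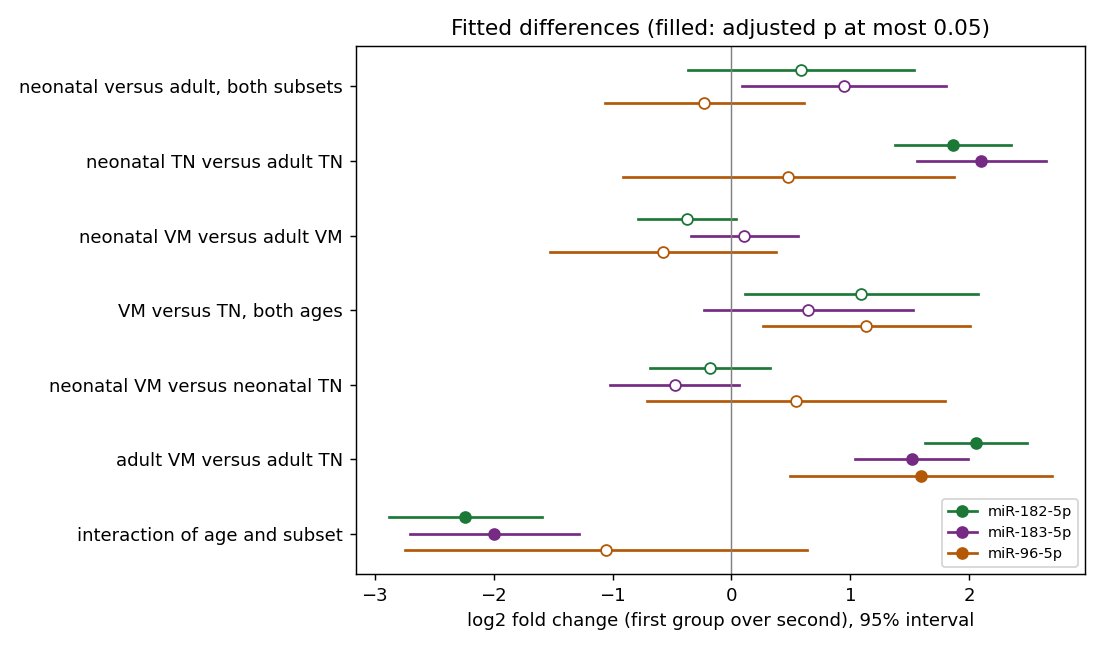
Log2 fold change with its 95% interval for the 3 members in the 7 comparisons, first-named group over the second, with filled points for adjusted p at most 0.05. The intervals of miR-182-5p and miR-183-5p lie above 0 in neonatal TN against adult TN and in adult VM against adult TN, and below 0 for the interaction.

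The ratio of members within a library does not depend on how libraries are scaled. MiR-182-5p had 19.3 and 18.9 counts per count of miR-183-5p in neonatal VM, 15.6 in neonatal TN and 25.1 and 28.2 in adult VM, against 16.3 and 20.6 in adult TN. The 2 adult VM libraries were the highest and neonatal TN the lowest. As a share of the counts of the 3 members, miR-182-5p made up 93.9 to 96.4% in every library, miR-183-5p 3.41 to 6.02% and miR-96-5p 0.124 to 0.374%.

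On the log2 scale the ratio of miR-182-5p to miR-183-5p averaged 4.16 ± 0.17 in neonatal (SD, n = 3) and 4.46 ± 0.35 in adult libraries (n = 4), a difference of -0.30 (exact permutation test, two-sided, p = 0.229, adjusted p = 0.343 over 6 tests). Between VM and TN it averaged 4.50 ± 0.28 (n = 4) and 4.11 ± 0.21 (n = 3), a difference of 0.38 (exact permutation p = 0.171, adjusted p = 0.343). With 3 against 4 libraries there are 35 splits and the smallest two-sided p is 0.0571, so no such test could pass. The ratio of miR-96-5p to miR-183-5p averaged -4.95 ± 0.62 in neonatal libraries (n = 3) and -3.92 ± 0.34 in adult ones (n = 4), a difference of -1.03 (exact permutation p = 0.114, adjusted p = 0.343). Its values overlapped, at -5.56 to -4.32 in neonatal and -4.38 to -3.57 in adult libraries. MiR-96-5p to miR-182-5p differed by -0.73 with age (exact permutation p = 0.114, adjusted p = 0.343). By subset the 2 ratios of miR-96-5p differed by 0.25 and -0.14 (exact permutation p = 0.686 and 0.80, adjusted p = 0.80 each), and both changed sign under other settings.

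**Figure D4:**
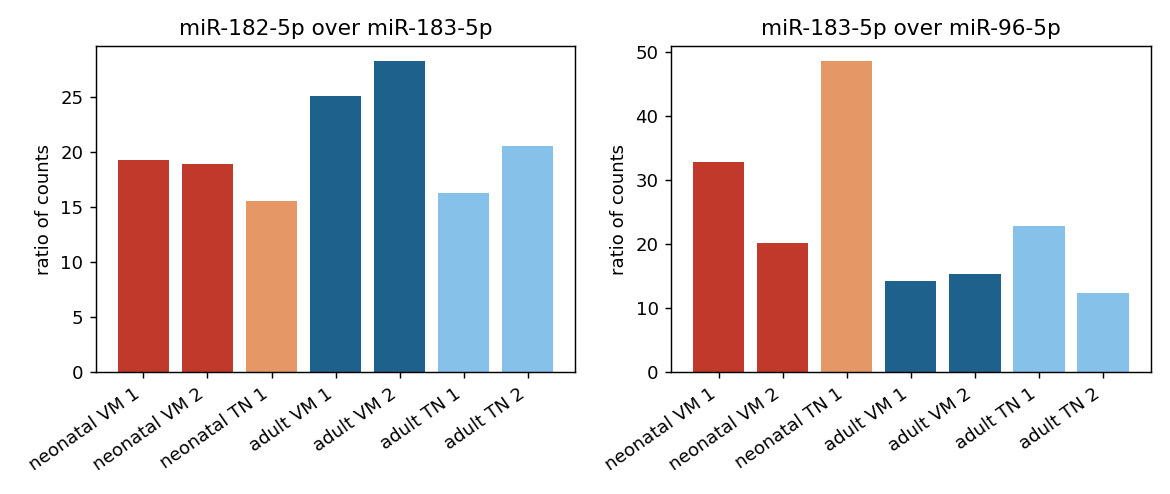
Ratio of counts in each library, miR-182-5p over miR-183-5p (left) and miR-183-5p over miR-96-5p (right), 1 bar per library coloured by group. The left ratio is between 15.6 and 28.2, while the right one is between 12.4 and 48.6, with its highest bar in neonatal TN, where miR-96-5p had 17 counts.

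Likeness between profiles was measured as the root mean square distance of log2 CPM over the 7 libraries, each profile centred on its own mean. MiR-182-5p and miR-183-5p lay 0.289 apart. MiR-182-5p was the nearest of all tested miRNAs to miR-183-5p, and miR-183-5p the second nearest to miR-182-5p. MiR-96-5p stood further off, 0.499 from miR-182-5p (12th nearest) and 0.649 from miR-183-5p (46th nearest). The 5 other miRNAs nearest to the mean of the 3 members were miR-30e-5p at 0.272, miR-98-5p at 0.284, miR-16-1-3p at 0.287, miR-33-5p at 0.314 and miR-429-3p at 0.343, against a median of 0.949 over the other tested miRNAs. In these 5 the adult TN libraries were the lowest too, but the choice by likeness to the members favours this, so it is not a separate result. In adult TN, miR-16-1-3p had 3.78 and 4.28 CPM and miR-33-5p 6.48 and 6.0 CPM. These 2 met the minimum for testing only through the other groups. MiR-30e-5p, the most abundant, had 11300 and 13000 CPM in neonatal VM, 10100 CPM in neonatal TN and 10100 and 13100 CPM in adult VM, against 5300 and 5030 CPM in adult TN.

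**Figure D5:**
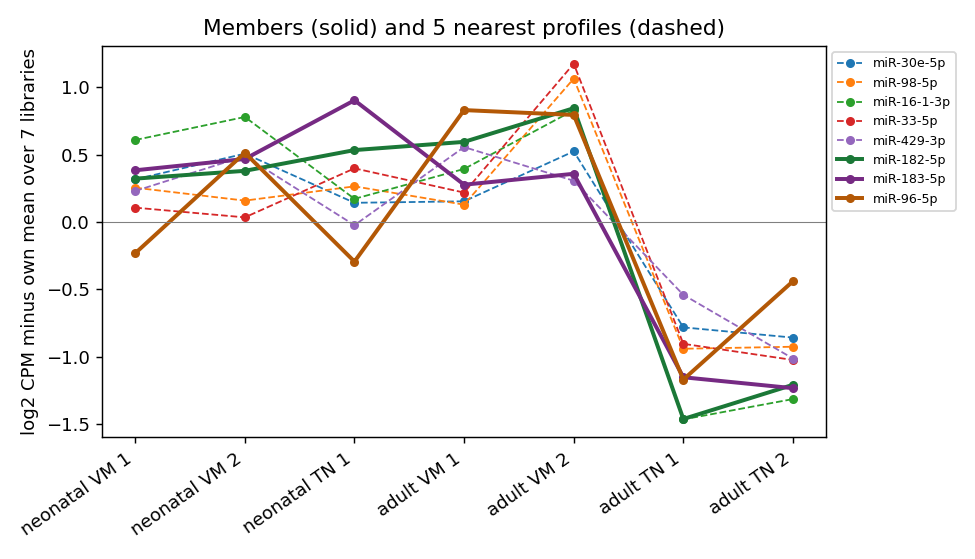
Log2 CPM minus each miRNA's own mean over the 7 libraries, for the 3 members (solid) and the 5 tested miRNAs nearest to their mean (dashed). All 8 lines are lowest in the 2 adult TN libraries, which for the 5 dashed ones is favoured by their choice for likeness. The members differ most in neonatal TN, where miR-183-5p is high and miR-96-5p low.

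Within 1 Mb of the cluster lie Mir335, 572 kb away, with at most 1.21 CPM in any library, and the Mir29a and Mir29b-1 pair, 893 kb away. MiR-29a-3p, a repressor of T-bet in T cells, had 2130 and 2160 CPM in neonatal VM and 1640 CPM in neonatal TN, against 15100 and 13300 CPM in adult VM and 14100 and 12300 CPM in adult TN. It was low in all neonatal libraries and did not pass between adult VM and adult TN (log2 fold change 0.11, edgeR adjusted p = 0.642), where miR-182-5p rose. MiR-29b-3p, which a further gene on another chromosome also encodes, had 34.6 and 58 CPM in neonatal VM and 37.4 CPM in neonatal TN, against 135 and 270 CPM in adult VM and 81 and 59.1 CPM in adult TN. It rose in adult VM against adult TN (log2 fold change 1.53, edgeR adjusted p = 0.0133), as miR-182-5p did, but passed neither between neonatal TN and adult TN (-0.90, edgeR adjusted p = 0.162) nor for the interaction (-1.21, edgeR adjusted p = 0.261).

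Foxo transcripts are also known targets of other miRNAs, and of a list of 10 of these, 5 were tested. In adult VM against adult TN, 3 of the 5 rose and 1 fell, with a median log2 fold change of 0.65 beside 0.09 over all tested miRNAs, of which 23.6% were called higher and 15.6% lower. The increases were miR-155-5p, processed from the Bic transcript (log2 fold change 1.44), miR-139-5p (0.67) and miR-27b-3p (0.65). MiR-132-3p, of the CREB-induced pair with miR-212, fell (-2.34). It had only 4.83 and 6.23 CPM in adult VM and met the minimum for testing through other groups. In neonatal TN against adult TN, where miR-182-5p and miR-183-5p rose, 3 of the 5 fell and none rose, with a median of -0.63 beside 0.04 over all tested miRNAs, of which 26.4% were called higher and 21.5% lower. These were miR-139-5p (-1.81), miR-155-5p (-0.86) and miR-27a-3p (-0.63). None of the 5 passed for the interaction, where 7.99% of all tested miRNAs were called, so their absence says little.

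MiR-182 is counted among the miRNAs that rise when T cells are activated, and 11 of 12 others known for that were tested. In adult VM against adult TN 6 rose and 1 fell, among them miR-21a-5p (log2 fold change 2.55) and miR-146a-5p (2.52), with a median of 0.87 beside 0.09 over all (23.6% called higher, 15.6% lower). The 6 include miR-210-3p (2.24), which stayed below the minimum in both adult groups, with 5.24 and 8.65 CPM in adult VM. The fall was that of miR-132-3p (-2.34), with only 4.83 and 6.23 CPM in adult VM. In neonatal TN against adult TN 4 rose and 2 fell, with a median of 0.36 beside 0.04 over all. Beside 26.4% called higher and 21.5% lower over all tested miRNAs, these last counts lie near the background. The largest increases were miR-31-5p (4.72) and miR-210-3p (4.55). Both met the minimum for testing only through the neonatal libraries, where they were high, so their calls are not used as support. MiR-210-3p had only 2.16 and 0.857 CPM in adult TN. The interaction was called for 2 of the 11, miR-146b-5p (-2.65) and miR-146a-5p (-1.66), beside 7.99% over all tested miRNAs. Both went in the direction of miR-182-5p. MiR-146b-5p was the only miRNA of this activation list past the test in all 3 comparisons in which miR-182-5p passed, with the same signs (3.30, 1.48 and -2.65). Those 3 share the adult TN libraries. MiR-146b-5p was also called in neonatal VM against neonatal TN (-1.18) and against adult VM (0.64), where miR-182-5p did not pass (-0.18 and -0.37).

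Because the cluster is also expressed in epithelia, markers of other cells were set beside these results. The 10 epithelial and sensory markers summed to 1025 and 1075 CPM in neonatal VM, 910.1 CPM in neonatal TN and 1629 and 1645 CPM in adult VM, against 765 and 777 CPM in adult TN. Of the 7 tested, 6 rose in adult VM against adult TN, among them miR-203-3p (log2 fold change 1.60) and miR-200a-3p (1.32), with a median of 1.2 beside 0.09 over all tested miRNAs, of which 23.6% were called higher. In neonatal TN against adult TN 2 of the 7 rose, miR-205-5p (3.84) and miR-200b-3p (0.84), near the 26.4% over all. The list median was 0.03 beside 0.04. MiR-205-5p had only 3.24 and 0.428 CPM in adult TN and met the minimum for testing through other groups. Of the 7, only miR-203-3p was called for the interaction (-1.31), beside 7.99% over all tested miRNAs. Their part in the cluster's difference was not tested, and in sorted cells more cells of a type and more RNA per cell cannot be told apart.

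Some markers of the other lists were called in the same contrasts, at lower levels. Over all tested miRNAs, 26.4% were called higher in neonatal TN against adult TN and 23.6% in adult VM against adult TN. For the interaction 7.99% were called. With 2 or 3 tested per list, counts of calls say little beside these shares. Erythroid markers summed to 156 to 179 CPM in neonatal VM, 446.5 CPM in neonatal TN and 494 to 594 CPM in adult VM, against 244 to 325.5 CPM in adult TN, nearly all of it miR-486a-5p and miR-486b-5p, near-identical copies between which the split of reads is uncertain. Both rose in adult VM against adult TN (0.93 each) and were called for the interaction (-2.36 and -2.35). Unlike miR-182-5p and miR-183-5p, they did not pass in neonatal TN against adult TN (0.63 and 0.61). They were lower in neonatal VM than in neonatal TN (-1.43 and -1.42) and than in adult VM (-1.727 and -1.735). Stromal and muscle markers summed to 60.1 to 71.2 CPM in neonatal VM, 98.4 CPM in neonatal TN and 27.4 to 50.2 CPM in adult VM, against 15.7 to 30.4 CPM in adult TN. Of the 2 tested, miR-143-3p was called in neonatal TN against adult TN (3.30), in adult VM against adult TN (1.64) and for the interaction (-2.46). MiR-10b-5p was called in none of these. MiR-143-3p had only 4.32 and 8.99 CPM in adult TN and met the minimum for testing through the other groups. Myeloid and progenitor markers summed to 109.5 to 141 CPM in neonatal VM, 88.4 CPM in neonatal TN and 164 to 208 CPM in adult VM, against 77.2 to 133 CPM in adult TN. Of the 3 tested, only miR-126a-5p rose in both comparisons with adult TN (3.46 and 2.05). It had only 3.24 and 5.57 CPM in adult TN and met the minimum for testing through the other groups, so these calls are not used as support. In every library these 3 sums lie below miR-182-5p and above miR-96-5p. The erythroid sums exceed miR-183-5p in neonatal TN, adult VM and adult TN, and the myeloid and progenitor sums do so in adult VM replicate 2 and both adult TN libraries. Their part in the result was not tested.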

How the data were processed

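Per the labels' protocols, CD8+ T cells were bead-enriched from gBT-I spleens, sorted by FACS on CD44 and CD122, and turned into small RNA libraries by the Illumina TruSeq method. The authors deposited 1 table of estimated counts per mature arm and precursor (2128 lines, 1978 names), with build mm10 per the submitters' processing notes. The aligner and counter are not given in the sources used here. Lines were added up per mature name and rounded (largest change 0.5), and the 21 member values were whole as deposited. Whether replicate numbers pair libraries was checked on deviations from group means (r = 0.02, 0.14 and -0.12 between groups), and the fit reported here has no block.

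A minimum of 10 CPM in 2 or more libraries left 288 miRNAs. They were tested with edgeR 4.0.16 (R 4.3.3) using TMM factors, robust dispersions, the quasi-likelihood test and Benjamini-Hochberg adjustment over all 288 at 0.05. Both averages used a model with additive age and subset terms (4 residual degrees of freedom), and the remaining contrasts used one mean per group (3). Ratios were tested by exact permutation in SciPy 1.17.1 with 0.5 added to counts. Alternatives were 3 other scalings (RLE, library totals, upper quartile), no filter, DESeq2 1.42.0, the replicate block, the largest precursor value per name, 5 added for ratios, and each library left out. Named miRNAs were the members, their other arms, seed relatives, miRNA genes within 1 Mb, the 5 nearest profiles, and up to 4 called miRNAs per list. Members and lists were chosen with earlier results of these data known.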

Additional observations from a re-analysis of the deposited data

Results flagged for a closer look

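The VM over TN difference of miR-182-5p and miR-183-5p differed between the ages by the interaction test. For miR-182-5p the neonatal minus adult value was -2.24 on the log2 scale (edgeR adjusted p = 6.53e-04), from -0.18 in neonatal and 2.06 in adult cells. For miR-183-5p it was -1.99 (edgeR adjusted p = 0.00183), from -0.48 in neonatal and 1.52 in adult cells. Both rest on 1 neonatal TN library, whose own spread is unknown. No group had enough libraries to look for a library far from its group.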

How the results depend on the processing

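Higher miR-182-5p and miR-183-5p in neonatal TN than adult TN and in adult VM than adult TN kept direction and call under all alternatives run, as did the interaction of miR-182-5p (log2 values 1.56 to 2.23, 1.79 to 2.46, 1.81 to 2.16, 1.35 to 1.61 and -2.33 to -1.83). Of 282 alternative values for the members, 251 kept direction and call, 20 newly passed, 4 no longer passed and 7 changed sign. The cause was not tested where no value shows it.

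With age over both subsets, miR-183-5p passed under RLE factors (1.0), library totals (1.39), upper quartile factors (0.87), no filter (0.80) and DESeq2 (1.01), and miR-96-5p turned to 0.23 under library totals. With subset over both ages, miR-182-5p passed under upper quartile factors (1.25), no filter (1.12) and DESeq2 (1.08). MiR-96-5p, whose calls are not used as support, passed under library totals (1.30), upper quartile factors (1.28), no filter (1.16) and DESeq2 (1.13). In neonatal VM against adult VM, miR-182-5p was 0.14 under library totals and -0.49, past the threshold, without the filter, while miR-183-5p was 0.62, past the threshold, and -0.01 in the same settings. In neonatal VM against neonatal TN, miR-182-5p turned to 0.06 and 0.20 under library totals and upper quartile factors. The ratio of miR-96-5p to miR-183-5p by subset turned to -0.03 with 5 added.

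Leaving out 1 library gave 0.67 to 2.05 for miR-182-5p, 0.33 to 1.51 for miR-183-5p and 0.81 to 1.59 for miR-96-5p by subset over both ages, with the highest without the neonatal TN library. With age over both subsets the ranges were -0.35 to 0.86 for miR-182-5p, 0.13 to 1.18 for miR-183-5p and -0.55 to 0.01 for miR-96-5p. They were 1.17 to 2.03 for miR-96-5p in adult VM against adult TN, -2.01 to -1.82 for the interaction of miR-183-5p and -0.50 to -0.19 for miR-182-5p in neonatal VM against adult VM. By subset the ratio of miR-96-5p ranged from -0.28 to 0.71 to miR-183-5p and from -0.59 to 0.21 to miR-182-5p. The neonatal TN library could not be left out of its own comparisons.

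Counts without the filter are out of 883 tested miRNAs instead of 288, so they stand for smaller shares. Those shares were 12.1% by subset over both ages, 4.87% for the interaction and 5.89% in neonatal VM against neonatal TN. With the filter they were 24.7%, 7.99% and 9.72%. The replicate block changed no call of a member, with 2.06 for miR-182-5p in adult VM against adult TN and -2.33 for its interaction, and it moved the count of called miRNAs by subset over both ages to 42, against 71. The same numbers did not deviate together in every pair of groups (r = -0.12 to 0.14). Without the filter that count was 107, and it was 18 to 112 with 1 library left out. For the interaction, 23 miRNAs were called, against 43 without the filter, 38 in DESeq2 and 6 to 86 with 1 library left out. In neonatal VM against neonatal TN, 28 were called, against 52 under upper quartile factors, 52 without the filter and 16 to 77 with 1 library left out. In adult VM against adult TN, 113 were called, against 54 and 23 without adult TN replicates 1 and 2. In neonatal TN against adult TN, 138 were called, against 86 and 83. There the median of all tested miRNAs was 0.04, against 0.41 under library totals and -0.26 under upper quartile factors, and calls were 76 higher and 62 lower, against 106 and 38 and 56 and 79. For the interaction, 5 higher and 18 lower became 8 and 14 under RLE factors and 18 and 12 under upper quartile factors. DESeq2 gave no adjusted p for miR-96-5p in adult VM against adult TN, neonatal VM against neonatal TN or the interaction. At 5 to 36 counts per library, depth limits every statement on miR-96-5p.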
